A study of Mus musculus with 96 samples.

Results

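The genes described here carry ubiquitin or a ubiquitin-like protein to substrates, or take it off again. They are the genes whose platform symbol begins with Trim and a digit, with Ube2 and a letter, or with Usp and a digit, without Usp18, and probes of the same gene were averaged. The arrays held 75 such genes, 24 Trim, 25 Ube2 and 26 Usp genes, on 84 probes. Of these, 67 had enough values to be tested (20 Trim, 23 Ube2 and 24 Usp genes), out of 11593 genes and unnamed probes tested in all. The choice by symbol also takes in Ube2cbp, which encodes a ubiquitin ligase and not a conjugating enzyme, Usp46os2, a transcript named for the strand opposite to Usp46, and Usp17la and Usp17lc, members of a multigene family whose probes may detect more than 1 copy.

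Ubiquitin is activated by an E1 enzyme, passed to an E2 conjugating enzyme, encoded here by the Ube2 genes, and joined to a substrate with the help of an E3 ligase. Most Trim proteins are E3 ligases with a RING domain, a B-box and a coiled coil, and several act in antiviral defence or in the control of innate immune signalling. The Usp genes encode the largest family of deubiquitinases, which remove ubiquitin. In macrophages, ubiquitin chains carry signals from Toll-like receptors to NF-kB, and the ubiquitin-like protein ISG15 is induced by interferon together with its own E1, E2 and E3.

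Transcripts were measured in RAW 264.7 cells, a mouse macrophage line, on 96 arrays, each of which compared treated cells in 1 dye with untreated cells of the same time in the other. Cells received LPS (bacterial lipopolysaccharide, 100 ng with 100 pM LPS binding protein; the labels give no volume) for 30 min, 1 h, 2 h or 4 h. Others received 5 nM interferon-gamma (IFNG), 500 uM 2-Methyl-thio-ATP (2MA, an agonist of purinergic receptors), LPS with IFNG, or LPS with 2MA, each for 1 h, 2 h or 4 h at the same doses. For 1 array, of 2MA at 1 h, the description gives 500 nM where the channel label gives 500 uM. Each of the 16 groups of treatment and time held 3 sets with 2 arrays of opposite dye each, and a set value is the mean of those 2 arrays. Nothing in the labels says that the sets were separate cultures, and p-values therefore cover the differences among these sets alone, possibly technical ones. All values below are log2 ratios of treated to untreated, where 1 is a 2-fold rise, and ratios carry no information on how abundant a transcript was. A gene was called changed at a Benjamini-Hochberg adjusted p under 0.05, over all 11593 genes of a comparison, in a linear model fitted with limma.

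Arrays had values for 13508 to 15004 probes. The labelled treatments were checked on 2 genes that are no members. Tnf averaged 3.19 after 4 h of LPS, and Irf1, a target of IFNG signalling, averaged 3.86 after 4 h of IFNG, each above 0 on 6 of 6 arrays. Both also rose with the other ligand at 4 h (Tnf 1.42 with IFNG, Irf1 2.71 with LPS), so these values alone do not tell the labels apart. At 1 h Tnf averaged 3.44 with LPS and 0.32 with IFNG, and Irf1 0.595 and 3.45. Tnf rose with 2MA too (2.06 at 1 h), and no gene particular to 2MA was checked. Before the sign was turned, the 2 dye orientations of a set correlated at r = -0.787 to 0.354 across genes. Of 48 such pairs, 9 lay above 0, all in the groups with 30 min or 1 h of LPS, 1 h of IFNG, or 2MA alone. Of 9 macrophage marker genes, 6 were tested, but ratios to untreated cells of the same line cannot show whether the cells expressed them.

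Of the 67 tested members, 46 were called in at least 1 of the 16 groups and 21 in none (4 of the 21 were called with the set number as a block). The same count over all genes is not given here. The 46 therefore does not show whether members were called more often than other genes. In the group of LPS with IFNG at 4 h alone, 34% of all genes and 49.25% of the members were called. With LPS more members were called at each later time, in both directions. After 30 min of LPS no member was called in limma, and 2 had an unadjusted p under 0.05, where 1.04% of all genes were called (0.725% up and 0.319% down). After 1 h 1 member rose and 3 fell, beside 3.13% of all genes up and 2.48% down (5.61% in all). At 2 h there were 10 rises and 6 falls, beside 7.84% up and 8.18% down (16% in all). At 4 h there were 11 rises and 16 falls, beside 12.7% up and 15.9% down (28.6% in all). The 27 members called at 4 h are 40.3% of those tested. The members' median response at 4 h was 0.00 and that of all genes was 0.00 (both on the log2 scale), with calls in both directions. By class, 5 of 20 Trim genes rose and 8 fell at 4 h of LPS, 3 of 23 Ube2 genes rose and 5 fell, and 3 of 24 Usp genes rose and 3 fell. Without set 1 the LPS counts were 2 at 1 h and 9 at 2 h, and leaving out 1 set at a time gave 19 to 28 at 4 h. Here and below, counts from fits without a set or with a block have no share of all genes beside them.

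After IFNG alone the calls of members were mostly rises, as were those of all genes at 1 h and 2 h. At 1 h 4 members rose and 0 fell, beside 1% of all genes up and 0.129% down (1.13% in all), with 11 members at an unadjusted p under 0.05. At 2 h 7 rose and 0 fell, beside 2.83% up and 0.604% down (3.43% in all), with 12 at an unadjusted p under 0.05. At 4 h 10 rose and 3 fell, beside 6.31% up and 5.99% down (12.3% in all). All 4 members that rose at 1 h were Trim genes. With LPS and IFNG together 6 rose and 5 fell at 1 h, beside 4.43% of all genes up and 3.19% down (7.62% in all). By 2 h 14 had risen and 8 had fallen, beside 9.89% up and 10.9% down (20.8% in all). By 4 h the counts were 16 and 17, beside 15.2% up and 18.8% down (34% in all). The joint counts at 1 h and 2 h, rises and falls together, were 6 and 13 without set 1, and that at 1 h was 7 without set 2.

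2MA alone gave few calls among the members. At 1 h only Trim59 was called, as a fall, beside 0.794% of all genes up and 0.612% down (1.41% in all). At 2 h no member was called in limma, with 5 at an unadjusted p under 0.05, beside 1.03% up and 0.302% down (1.33% in all). At 4 h Trim30a, Trim34a and Ube2l6 rose, beside 1.42% up and 0.578% down (2% in all). Without set 1 no member was called at 1 h or 4 h of 2MA, with limma, and without set 2 there were 3 calls at 1 h. With the set number as a block, 3 members were called at 1 h, 1 at 2 h and 6 at 4 h of 2MA, and 7 at 1 h of LPS. With LPS and 2MA together, 2 members rose and 3 fell at 1 h, beside 3.47% of all genes up and 1.98% down (5.45% in all). At 2 h 8 rose and 8 fell, beside 8.57% up and 9.23% down (17.8% in all), and at 4 h 15 rose and 15 fell, beside 14.9% up and 18.5% down (33.4% in all).

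**Figure D1:**
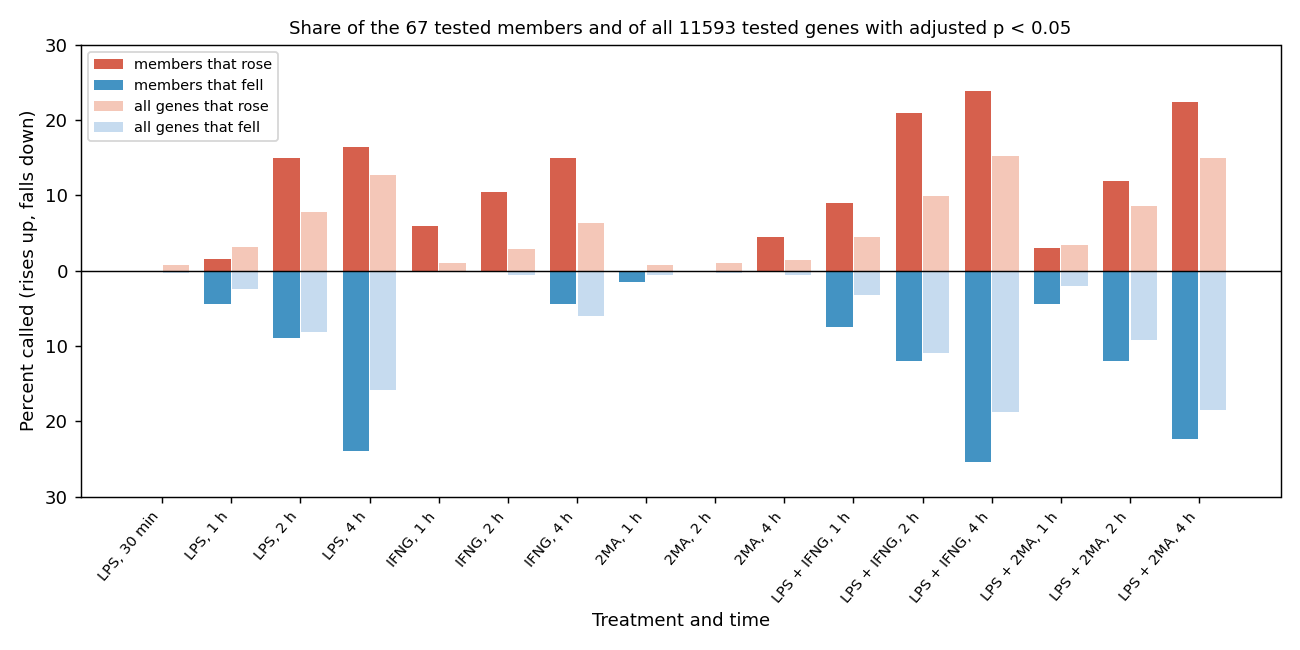
Percent of the 67 tested members (dark bars) and of all 11593 tested genes (pale bars) called in each group, with rises drawn up and falls drawn down from 0. After 4 h of LPS, 11 members rose and 16 fell, after 2 h of IFNG 7 rose and 0 fell, and after 2 h of 2MA no member was called.

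**Figure D2:**
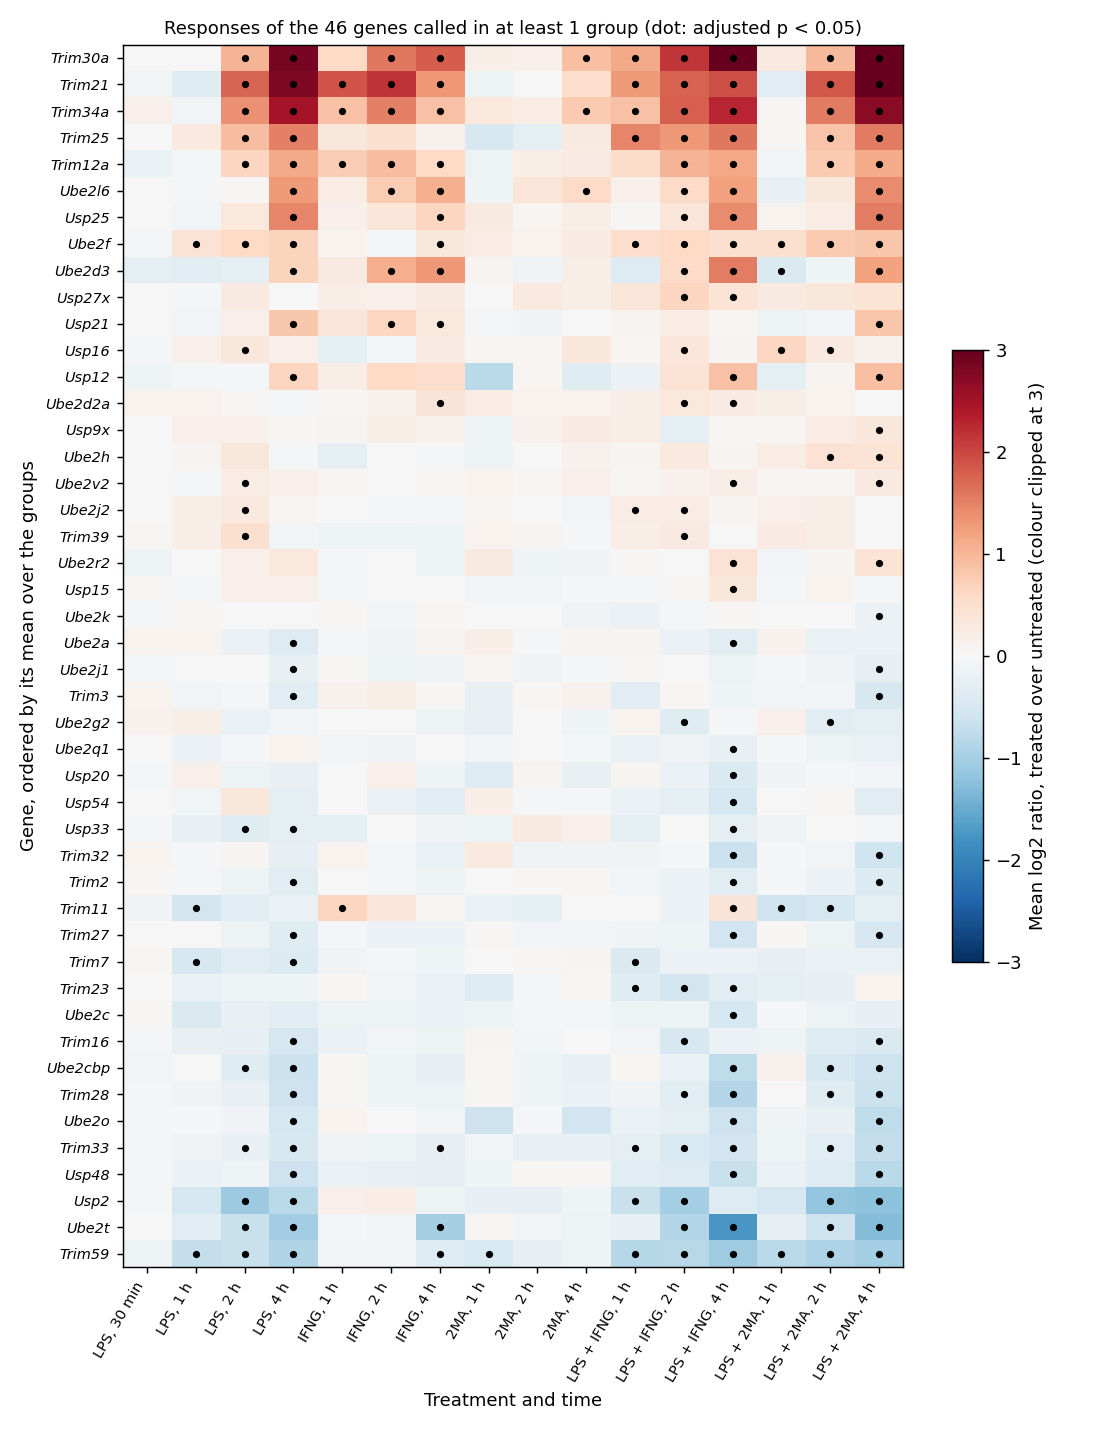
Mean log2 ratio of treated to untreated in the 16 groups (columns) for the 46 members called at least once (rows, ordered by their mean over the groups); a dot marks an adjusted p under 0.05 and the colour is clipped at 3. Trim30a, Trim21 and Trim34a are the top rows, and Trim59, Ube2t and Usp2 the bottom rows.

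The members with the 4 highest group means were the antiviral Trim genes Trim30a, Trim21, Trim34a and Trim25, and Trim12a is described with them. Trim30a restrains Toll-like receptor signalling to NF-kB, Trim21 is a cytosolic antibody receptor and E3 ligase, Trim34a and Trim12a belong to the same gene cluster as Trim30a and are related to the retroviral restriction factor TRIM5, and Trim25 ubiquitinates the RNA sensor RIG-I. The promoters of Trim21, Trim34a, Trim30a and Trim12a are printed because these genes moved with both LPS and IFNG and because each window holds the interferon-stimulated response element core GAAA, any 2 bases, GAAA, searched on both strands (a match on the opposite strand reads TTTC, any 2 bases, TTTC). The sequences are from RefSeq (GRCm38.p6), run 5′ to 3′ on the gene's strand from 250 bases before the annotated start to 50 after it, and carry the motif in capitals. For Trim21 the capitals are 2 overlapping matches.
Trim21 (chr7:102565433-102565732, minus strand): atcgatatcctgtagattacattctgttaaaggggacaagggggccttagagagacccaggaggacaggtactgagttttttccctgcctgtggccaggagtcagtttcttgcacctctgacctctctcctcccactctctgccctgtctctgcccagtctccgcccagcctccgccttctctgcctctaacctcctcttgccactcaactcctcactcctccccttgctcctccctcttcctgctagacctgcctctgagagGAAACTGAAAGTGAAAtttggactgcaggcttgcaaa
Trim34a (chr7:104244207-104244506, plus strand): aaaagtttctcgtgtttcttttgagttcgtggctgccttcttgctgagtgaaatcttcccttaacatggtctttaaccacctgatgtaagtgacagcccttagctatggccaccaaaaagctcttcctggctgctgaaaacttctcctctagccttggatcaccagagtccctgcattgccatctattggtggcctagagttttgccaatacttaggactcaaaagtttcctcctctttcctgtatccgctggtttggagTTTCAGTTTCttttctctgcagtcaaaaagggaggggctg
Trim30a (chr7:104465144-104465443, minus strand): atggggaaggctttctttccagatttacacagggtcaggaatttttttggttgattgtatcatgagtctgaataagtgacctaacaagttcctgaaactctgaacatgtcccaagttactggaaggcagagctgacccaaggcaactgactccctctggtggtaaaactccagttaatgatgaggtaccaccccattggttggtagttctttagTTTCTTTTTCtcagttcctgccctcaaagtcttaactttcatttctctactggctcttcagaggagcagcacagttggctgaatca
Trim12a (chr7:104315446-104315745, minus strand): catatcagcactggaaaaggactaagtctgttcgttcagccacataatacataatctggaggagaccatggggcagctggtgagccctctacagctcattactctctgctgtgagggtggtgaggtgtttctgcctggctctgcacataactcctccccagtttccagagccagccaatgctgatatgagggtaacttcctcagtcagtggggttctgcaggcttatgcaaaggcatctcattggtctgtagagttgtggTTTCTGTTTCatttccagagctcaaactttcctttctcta
All 4 genes lie on chromosome 7. The first match begins 13 bases after the annotated start in Trim21, 10 bases after it in Trim34a and Trim12a, and at -36 in the Trim30a promoter shown, whose other annotated promoter also holds it.

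The motif was in 7 of 73 member promoters (9.59%), belonging to 6 of 58 member genes with a promoter in the table. Among all 32851 promoters of the same length 1131 held it (3.44%). The other members with it were Trim2, which fell, and Usp17lc, which was called in no group. It was not found in the windows of Trim25, Ube2l6, Usp25 or Ube2d3, members that rose. A match describes letters in this window and is not evidence of a bound factor.

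Trim30a gave set values of 1.33, 1.10 and 0.61 after 2 h of LPS and 3.17, 2.69 and 2.69 after 4 h. All 3 sets were higher at 4 h than any set at 2 h, while its means were 0.01 at 30 min and 0.02 at 1 h. The mean at 4 h was 2.85 ± 0.28 (SD, n = 3 sets), a 7.21-fold rise with an adjusted p of 2.58e-16 in limma. With IFNG for 4 h its sets lay at 1.77, 1.43 and 2.26 (3.53-fold, adjusted p = 2.15e-10 in limma), and all were below every set of LPS at that time. With both ligands for 4 h the sets lay at 3.73, 3.04 and 3.33, a 10.3-fold rise and the largest mean of any member in any group (adjusted p = 1.02e-18 in limma). Its response to 2MA at 4 h, with sets at 1.31, 0.77 and 0.65, had an adjusted p of 0.00213 in limma, and of 0.372 without set 1. That response was above 0 in 3 of 3 sets, and the highest value came from set 1.

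Trim21 had the largest response to 1 h of IFNG among the members. The 3 sets gave 1.82, 1.85 and 1.96 after 1 h, a 3.67-fold rise (adjusted p = 3.16e-10 in limma), 2.20, 1.91 and 2.41 after 2 h, and 1.07, 0.97 and 1.89 after 4 h. All 3 sets of IFNG at 2 h were above the 3 sets at 4 h, 1.91 being the lowest of the former and 1.89 the highest of the latter. After LPS the later time was the higher. The mean was -0.36 at 1 h, where it was not called, and the sets were at 2.19, 1.97 and 1.06 after 2 h and 3.01, 2.52 and 2.85 after 4 h. At 4 h this was a 6.94-fold rise (adjusted p = 2.78e-16 in limma). LPS with 2MA gave a like value at 4 h (2.98 ± 0.44, SD, n = 3 sets), whereas LPS with IFNG gave 1.92 ± 0.41 (SD, n = 3 sets).

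Trim34a rose in 11 of the 16 groups, the most of any member that rose. Its sets were at 0.79, 0.87 and 0.98 after 1 h of IFNG (adjusted p = 1.13e-05 in limma), 1.56, 1.32 and 1.69 after 2 h and 0.61, 0.74 and 1.31 after 4 h, so the 2 h sets were the highest. With LPS for 4 h the sets lay close together, at 2.50, 2.59 and 2.39, a 5.64-fold rise (adjusted p = 1.3e-18 in limma). With 2MA alone for 4 h they were at 1.13, 0.75 and 0.45, where the adjusted p was 0.000268 in limma and 0.186 without set 1. Trim12a rose less, to 1.31, 0.77 and 1.32 after 4 h of LPS (2.19-fold, adjusted p = 7.65e-07 in limma) and 1.29, 0.56 and 0.90 after 2 h of IFNG. Its calls after 1 h and 4 h of IFNG (means 0.75 and 0.61) had adjusted p-values of 0.385 and 0.23 without set 3. Trim12a, Trim30a and Trim34a have close relatives in the mouse genome, and whether their probes tell these apart was not tested.

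Trim25 was called in no group of IFNG alone. After 4 h its sets were at 1.58, 1.23 and 1.72 with LPS (2.85-fold, adjusted p = 1.71e-10 in limma) and at -0.06, 0.17 and 0.31 with IFNG. The 2 groups do not overlap. With both ligands it had already reached 1.45, 1.43 and 1.51 after 1 h, among the tightest sets of these genes, when LPS alone gave a mean of 0.30 that was not called. After 2 h of LPS with 2MA its sets spread from 0.08 to 1.59.

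**Figure D3:**
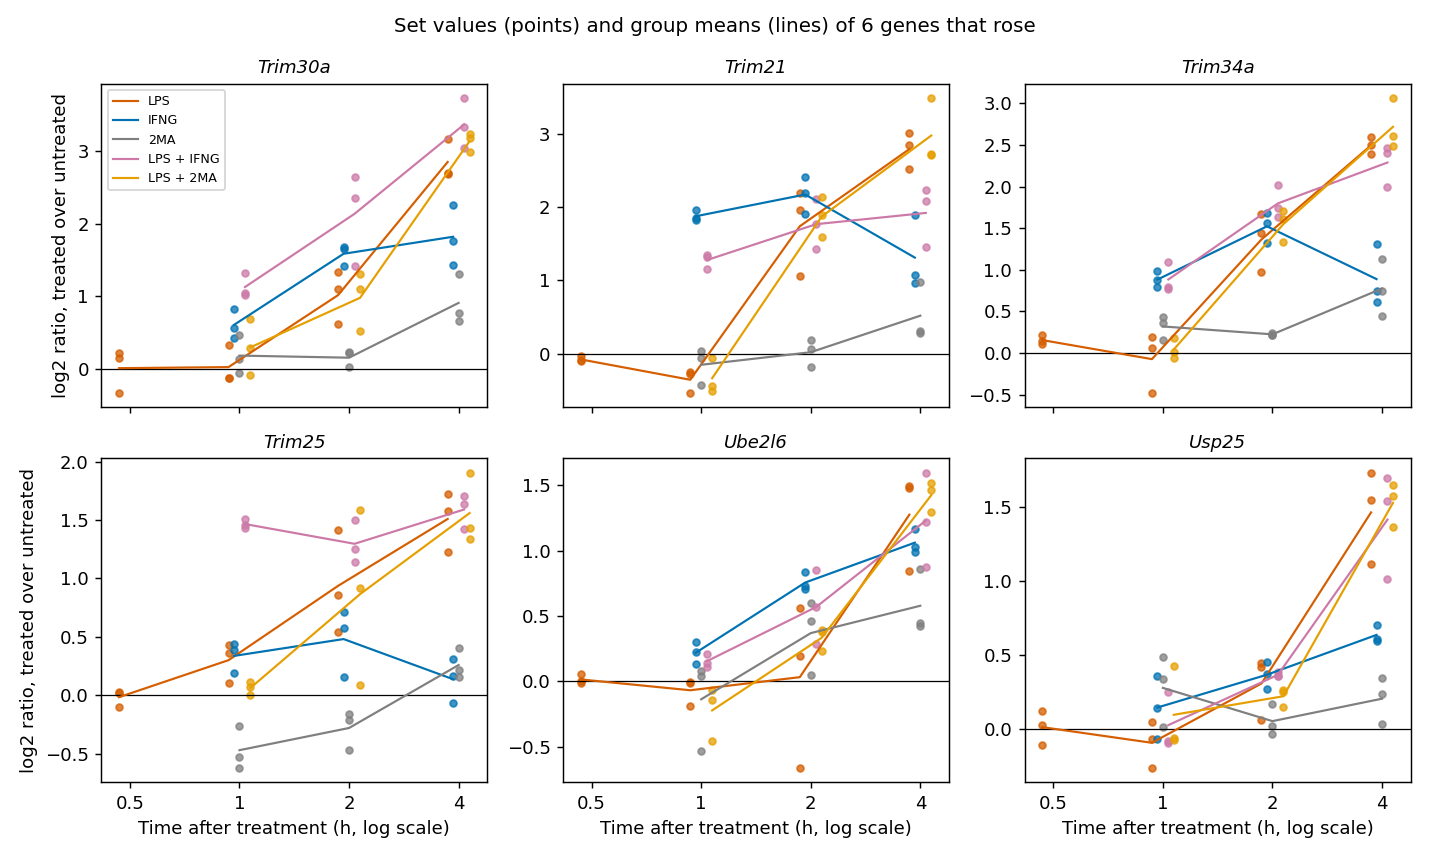
Log2 ratio of treated to untreated against time (h, log scale) for Trim30a, Trim21, Trim34a, Trim25, Ube2l6 and Usp25; points are the 3 set values of a group, offset sideways by treatment, and lines join group means, with a scale of its own for each gene. After 4 h of LPS Trim30a averaged 2.85 and Trim21 2.80, and Trim21 averaged 2.18 at 2 h and 1.31 at 4 h of IFNG.

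Other Trim genes that rose did so in fewer groups. Trim39 was called up after 2 h of LPS (0.49 ± 0.16, SD, n = 3 sets, adjusted p = 6.47e-05 in limma) and averaged -0.09 at 4 h. Trim11 moved in opposite directions at 1 h: its sets were at 0.92, 0.55 and 0.44 with IFNG and -0.36, -0.57 and -0.72 with LPS. Both were called, with adjusted p-values of 0.000841 and 0.00195 in limma, and the sets do not overlap, but the difference between the ligands at 1 h was not tested. Without set 1 the IFNG call had an adjusted p of 0.0632, and without set 2 or 3 the LPS call had 0.0685 and 0.0862. LPS with 2MA also lowered Trim11, to -0.60 ± 0.06 (SD, n = 3 sets) at 1 h.

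Most Trim genes that were called fell. Trim59 was called down in 11 of the 16 groups, more than any other member that fell. Set values were -0.71, -0.74 and -0.68 after 1 h of LPS, a 1.63-fold fall (adjusted p = 2.35e-09 in limma), and -0.88, -0.89 and -0.92 after 4 h, 1.86-fold lower than untreated (adjusted p = 6.7e-13 in limma). The sets of each time lay close together, and those at 4 h were all below those at 1 h. IFNG alone lowered it only at 4 h among its 3 times (-0.39 ± 0.08, SD, n = 3 sets), and LPS with IFNG brought it to -1.06 ± 0.13 (SD, n = 3 sets). Its 2 probes gave falls of like size in most groups, but after 1 h of 2MA they read -0.76 and -0.16, and without set 1 the adjusted p of that fall was 0.762 in limma.

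Trim28 and Trim33 are nuclear corepressors of the same subfamily, Trim28 acting with KRAB zinc finger proteins and Trim33 with SMAD proteins. Trim28 had sets at -0.57, -0.65 and -0.64 (1.53-fold lower, adjusted p = 5.15e-05 in limma) after 4 h of LPS and at -0.76, -0.97 and -0.93 (1.85-fold lower) with IFNG added. Trim33 had sets at -0.51, -0.31 and -0.62 after 4 h of LPS, -0.53, -0.56 and -0.61 with IFNG added and -0.72, -0.67 and -0.74 with 2MA added. Every set of both genes was below 0 in these groups, and none of the falls reached 2-fold. With IFNG alone for 4 h Trim33 was called (-0.25 ± 0.05, SD, n = 3 sets, adjusted p = 0.0129 in limma), but had 0.126 without set 1 and 0.16 without set 3. Trim24, also of that subfamily, and Trim13, Trim14, Trim26 and Trim56 had no named probe here.

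Smaller falls with LPS at 4 h came from Trim16 (-0.50 ± 0.31), Trim7 (-0.42 ± 0.21), Trim27 (-0.36 ± 0.15), Trim2 (-0.35 ± 0.16) and Trim3 (-0.31 ± 0.11, mean ± SD of 3 sets each). Each of these 5 calls was lost without at least 1 set. Without set 1 the adjusted p in limma was 0.186 for Trim16, 0.0611 for Trim7, 0.13 for Trim27 and 0.17 for Trim3, and without set 2 it was 0.0814 for Trim2. Trim32, which was not called after LPS alone, fell with LPS and IFNG (-0.65 ± 0.32, SD, n = 3 sets, adjusted p = 0.000212 in limma) and with LPS and 2MA (-0.59 ± 0.11, SD, n = 3 sets, adjusted p = 0.000722). Its difference between either pair and LPS alone was not called.

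Among the E2 enzymes, Ube2l6, the E2 of ISG15, rose after 4 h with every treatment. Its sets were at 1.49, 1.48 and 0.85 with LPS (2.42-fold, adjusted p = 2.98e-09 in limma), 0.99, 1.17 and 1.03 with IFNG (2.08-fold, adjusted p = 4.91e-07) and 1.59, 1.22 and 0.87 with both. These 3 groups overlap. It was at 0.03 on average after 2 h of LPS, when IFNG for the same time had brought it to 0.76 ± 0.07 (SD, n = 3 sets). With 2MA for 4 h its sets were at 0.86, 0.42 and 0.45, where the adjusted p of 0.0246 in limma became 0.521 without set 1 and 0.0927 without set 2. The other parts of the ISG15 pathway that were tested moved the same way at 4 h of LPS: Isg15 averaged 4.02 ± 0.24, its E1 Uba7 2.33 ± 0.26 and the mouse ISG15 ligase Herc6 3.18 ± 0.38 (SD, n = 3 sets). At 4 h of IFNG they averaged 2.34 ± 0.29, 1.17 ± 0.17 and 1.77 ± 0.13. Usp18, which removes ISG15, had values on 92 arrays but did not have the 2 sets required in every group, and is no member here.

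Ube2d3, an E2 that works with many E3 ligases, rose further with IFNG than with LPS. Its sets were at 1.08, 0.89 and 1.27 after 2 h of IFNG and 1.34, 1.25 and 1.33 after 4 h, the latter a 2.48-fold rise (adjusted p = 6.49e-12 in limma). LPS gave negative means at 30 min, 1 h and 2 h (-0.27, -0.34 and -0.27, none called; at 1 h the adjusted p was 0.0476 with the set number as a block) and then 0.79, 0.68 and 0.51 at 4 h (1.58-fold, adjusted p = 7.42e-06). The 4 h sets of the 2 ligands do not overlap. With both, the sets were at 1.83, 1.36 and 1.43 and all above those of either ligand alone. Ube2d3 was called down after 1 h of LPS with 2MA (-0.43), with an adjusted p in limma of 0.229 without set 2 and 0.0527 without set 3. Its near-identical relative Ube2d2a averaged 0.39 ± 0.14 after 4 h of IFNG (adjusted p = 0.00114 in limma, 0.169 without set 1), and whether the probes of the 2 genes share signal was not tested.

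Ube2f, an E2 of the ubiquitin-like protein NEDD8, gave the earliest rise after LPS. Set values were 0.48, 0.46 and 0.39 after 1 h (adjusted p = 0.00213 in limma, 0.215 without set 1), 0.47, 0.70 and 0.61 after 2 h and 0.66, 0.52 and 0.85 after 4 h. The 2 h and 4 h sets overlap, and the largest mean was 0.82 ± 0.26 (SD, n = 3 sets), a 1.77-fold rise after 4 h of LPS with 2MA. Ube2f was called up in 10 of the 16 groups, including every group with LPS but the one at 30 min. Ube2m, the other NEDD8 E2, had no named probe here.

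The E2 genes that build the signalling chains of the NF-kB pathway gave small values. Ube2n, which carries them, was not tested: it had values on 73 arrays and enough sets in 10 groups, with group means from -0.11 to 0.27. Of its inactive partners, Ube2v1 was called in no group (means -0.21 to 0.17), and Ube2v2 was called after 2 h of LPS (0.22 ± 0.06, SD, n = 3 sets) and after 4 h of LPS with IFNG or 2MA (0.19 and 0.27). The Ube2v2 calls with LPS at 2 h and with LPS and IFNG were lost without any 1 of the 3 sets, the lowest adjusted p being 0.0759 in limma. Its 2 probes read -0.06 and 0.39 after 4 h of LPS, so they differ in sign.

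Ube2t, the E2 of the Fanconi anaemia pathway, had the largest fall of all members. The set values were -1.30, -0.70 and -1.12 after 4 h of LPS, -1.08, -0.76 and -1.15 after 4 h of IFNG and -2.10, -1.36 and -1.79 after 4 h of both. LPS and IFNG alone overlap, and all 3 sets of the pair lie below every set of either ligand. The falls were 2.06-fold, 1.99-fold and 3.37-fold, with adjusted p-values of 4.4e-08, 3.27e-07 and 5.65e-14 in limma. Ube2c, the E2 of the anaphase-promoting complex, was called down only with LPS and IFNG at 4 h, where its sets were at -0.54, -1.06 and 0.01. Set 3 was not below 0, and without set 1 or set 2 the adjusted p was 0.212 or 0.309. Cdc20, an activator of that complex and no member, averaged -0.92 ± 0.38 after LPS and -1.35 ± 0.50 after both ligands (SD, n = 3 sets). On these bulk ratios, fewer cells expressing a gene and less RNA per cell cannot be told apart.

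The other E2 genes that fell after 4 h of LPS were Ube2a, which acts in DNA damage tolerance (-0.38 ± 0.19, SD, n = 3 sets, adjusted p = 0.000276 in limma), Ube2o (-0.53 ± 0.09) and Ube2j1, an E2 of the endoplasmic reticulum (-0.22 ± 0.16). The latter 2 calls had adjusted p-values of 0.118 and 0.391 without set 1. Ube2cbp fell as well (-0.65 ± 0.15, SD, n = 3 sets, 1.56-fold, adjusted p = 4.26e-05 in limma). For Ube2g2, which acts in the degradation of proteins from the endoplasmic reticulum, the 2 probes read -0.30 and 0.62 after 1 h of LPS with 2MA, so its mean there says little.

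**Figure D4:**
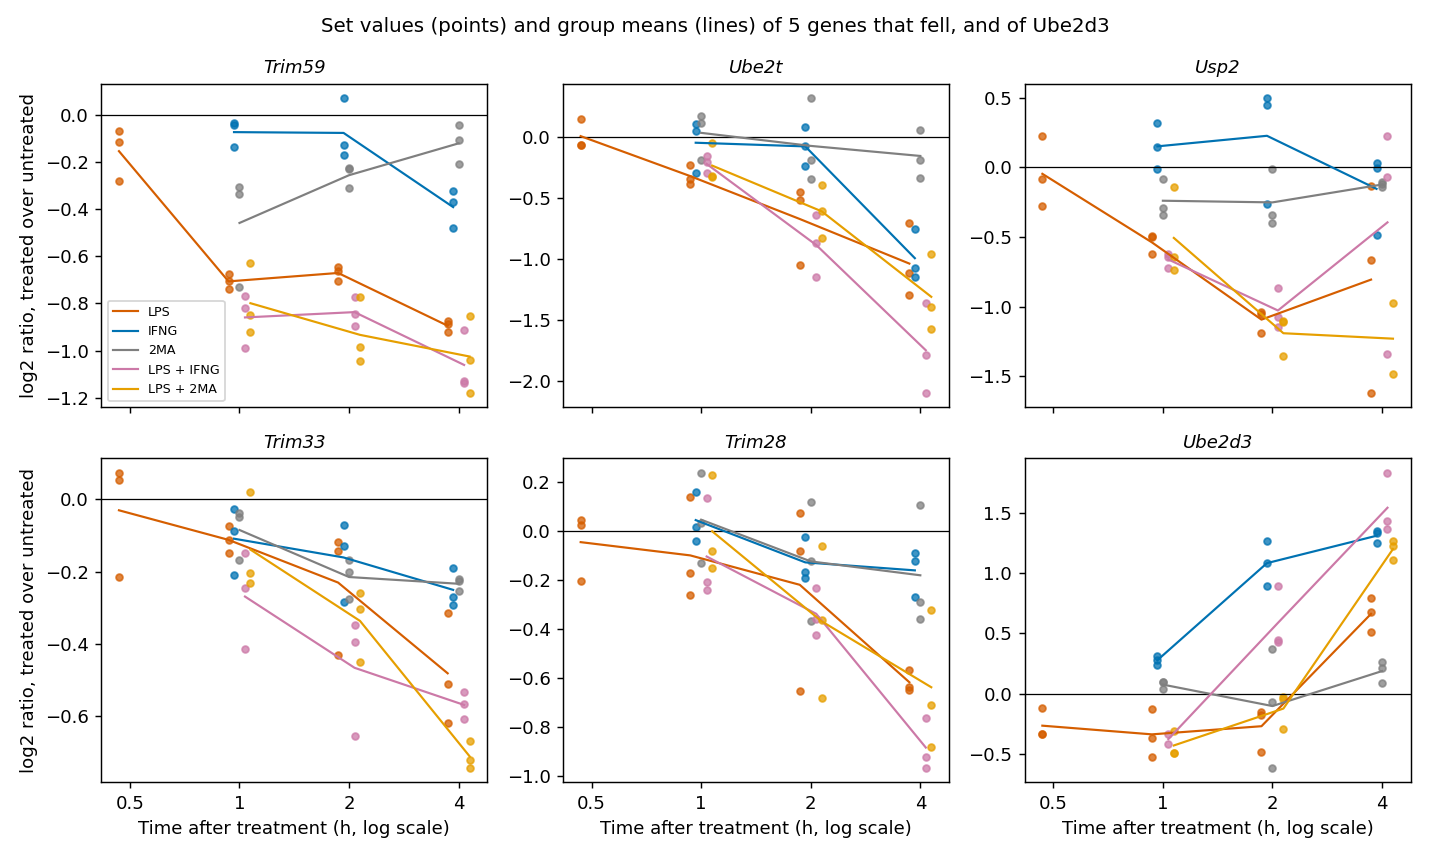
Log2 ratio of treated to untreated against time (h, log scale) for Trim59, Ube2t, Usp2, Trim33, Trim28 and Ube2d3; points are the 3 set values of a group (2 where a value is missing), offset sideways by treatment, and lines join group means, with a scale of its own for each gene. Ube2t falls to -1.75 after 4 h of LPS with IFNG, and Ube2d3 is below 0 at the first 3 LPS times and at 0.66 at 4 h.

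Among the deubiquitinases, Usp25, a regulator of interferon and cytokine receptor signalling, had the largest rise. After 4 h its sets were at 1.54, 1.73 and 1.11 with LPS (2.75-fold, adjusted p = 8.01e-14 in limma), 0.71, 0.59 and 0.61 with IFNG (1.55-fold, adjusted p = 4.08e-05) and 1.57, 1.65 and 1.36 with LPS and 2MA. All LPS sets were above all IFNG sets. Before 4 h LPS alone gave no call for it, though at 2 h (mean 0.31) the adjusted p was 0.0457 in limma with the set number as a block. Usp12 rose after 4 h of LPS (0.66 ± 0.16, SD, n = 3 sets, adjusted p = 0.0231 in limma), with 0.126 without set 1 and 0.15 without set 2.

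Usp21, which acts on RIG-I and on histone H2A, was called after LPS alone and after IFNG alone. It was not called after both together or after 2MA alone. Its sets were at 0.76, 0.90 and 0.77 after 4 h of LPS (1.75-fold, adjusted p = 3.29e-08 in limma) and 0.62, 0.64 and 0.63 after 2 h of IFNG (1.55-fold, adjusted p = 3.21e-05). After 4 h of IFNG the mean was 0.31, and its call had an adjusted p in limma of 0.259 without set 1 and 0.431 without set 3. With both for 4 h the sets were at 0.10, -0.05 and 0.13 and the gene was not called. The sets of LPS alone and of both ligands at 4 h do not overlap, and in no group with both was it called.

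Usp2, a deubiquitinase whose transcript is known to follow the circadian clock, fell with LPS. At 2 h of LPS the sets were at -1.05, -1.19 and -1.04 (2.13-fold lower, adjusted p = 3.58e-05 in limma), at -1.11, -1.36 and -1.11 with 2MA added and at -1.08, -0.87 and -1.14 with IFNG added. The 2 h sets of these 3 groups overlap. At 4 h of LPS the sets spread to -0.67, -0.14 and -1.62, and the mean at 4 h of LPS with 2MA rests on 2 sets (-0.98 and -1.48). IFNG or 2MA alone gave no call for it. Usp48 fell at 4 h of LPS (-0.61 ± 0.12, SD, n = 3 sets, adjusted p = 0.00144 in limma), as it did with IFNG added (-0.67) and with 2MA added (-0.80). Usp33 was called down at 4 h of LPS although its sets (-0.38, -0.50 and 0.03) differ in sign, and the adjusted p was 0.358 without set 1 and 0.338 without set 2. Usp5 had no named probe, and Usp14, with values on 86 arrays, was not tested (group means -0.19 to 0.21).

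The 2 single ligands were compared at 4 h by the difference of their responses, LPS minus IFNG. Of the members 6 were higher with LPS and 4 with IFNG, beside 5.36% and 4.69% of all genes (10% in all). The 6 were Trim34a (difference 1.61, SE 0.18), Trim21 (1.48, SE 0.25), Trim25 (1.37, SE 0.22), Trim30a (1.03, SE 0.25), Usp25 (0.83, SE 0.16) and Usp21 (0.51, SE 0.15). Ube2d3 (-0.65, SE 0.16), Ube2a (-0.45, SE 0.12) and Ube2d2a (-0.45, SE 0.12) were higher with IFNG, and Trim59 (-0.50, SE 0.10) fell further with LPS. All 10 differences had the same sign in 3 of 3 sets, with adjusted p-values in limma from 1.82e-08 (Trim34a) to 0.0176 (Usp21). Ube2l6 (0.21) and Ube2t (-0.04) did not pass. There were 6 calls without set 1 and 5 without set 2. Without set 2 the adjusted p was 0.0762 for Ube2d3, 0.056 for Usp25, 0.0564 for Trim30a, 0.484 for Usp21, 0.252 for Ube2a and 0.0717 for Ube2d2a. Without set 1 Trim30a (0.197), Ube2a (0.0781), Ube2d2a (0.197) and Usp21 (0.119) missed the threshold, and without set 3 Ube2d2a did (0.0513). With the set number as a block there were 15 calls, which added Trim10, Trim28, Ube2r2, Usp2 and Usp8.

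What IFNG added to LPS was tested as the response to both minus the response to LPS. Whether these groups shared untreated RNA is not stated in the labels. At 1 h 4 members were higher with both and 0 lower, beside 0.966% and 0.0431% of all genes (1.01% in all): Trim21 (1.64, SE 0.25, adjusted p = 2.31e-05 in limma), Trim25 (1.17, SE 0.22, adjusted p = 0.000677), Trim30a (1.10, SE 0.25, adjusted p = 0.0111) and Trim34a (0.96, SE 0.18, adjusted p = 0.00115). Each was higher in 3 of 3 sets. Without set 1 Trim21 alone was called at 1 h, and Trim30a had adjusted p-values of 0.107 and 0.0592 without set 2 and set 3. At 2 h 2 members were higher and 0 lower, beside 2.04% and 0.707% of all genes (2.74% in all): Trim30a (1.12, SE 0.25) and Ube2d3 (0.86, SE 0.16), and there were 1 call without set 1 and 0 without set 3 in limma, where Ube2d3 had an adjusted p of 0.0802 and Trim30a 0.246. With the set number as a block 1 more member was called at 2 h, Usp54, which was lower with both (-0.64, adjusted p = 0.0248 in limma, 0.144 without the block), in 3 of 3 sets.

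At 4 h 2 members were higher with both ligands and 3 lower, beside 2.61% and 1.54% of all genes (4.15% in all). Ube2d3 was higher with both ligands than with LPS (0.88, SE 0.16, adjusted p = 0.000182 in limma), and so was Trim11 (0.60, SE 0.17). Trim21 (-0.87, SE 0.25), Usp21 (-0.75, SE 0.15, adjusted p = 0.000595 in limma) and Ube2t (-0.71, SE 0.19) were lower. Each of the 5 kept 1 sign in 3 of 3 sets. There were 2 calls without set 1, 2 without set 2 and 3 without set 3, and Trim11 was called in none of these, with adjusted p-values of 0.0595, 0.178 and 0.353. Trim21, with adjusted p = 0.031, had 0.361 without set 1 and 0.312 without set 2. Usp21 had 0.0753 without set 2, and Ube2t 0.229 without set 1 and 0.242 without set 3.

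The joint response at 4 h was also set against the sum of the single responses on the log2 scale. Such a sum is a product of folds, so a joint response below it can still lie above that to either ligand alone. No member was called above the sum in limma, and 6 were called below it, beside 0.845% and 1.86% of all genes (2.71% in all). For Trim21 the joint mean was 1.92 against single means of 2.80 and 1.31, a difference from the sum of -2.18 (SE 0.30, adjusted p = 4.82e-06 in limma) with sets at -2.01, -2.04 and -2.51. This was the gene farthest below the sum, and the only one of the 6 apart from Usp21 whose joint response was also called below LPS alone. The difference was -1.30 (SE 0.31) for Trim30a, -1.11 (SE 0.25) for Ube2l6, -1.09 (SE 0.23) for Trim34a, -1.06 (SE 0.18) for Usp21 and -0.68 (SE 0.19) for Usp25. Their adjusted p-values in limma ran from 0.000124 (Usp21) to 0.0417 (Usp25), each in 3 of 3 sets. Without set 2 there were 3 calls, with 0.164 for Trim34a, 0.32 for Ube2l6 and 0.371 for Usp25, without set 1 Trim30a had 0.14 and Usp25 0.376, and without set 3 Trim30a had 0.108. Ube2d3 (-0.43, SE 0.19) and Ube2t (0.28, SE 0.23) were not called apart from the sum.

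**Figure D5:**
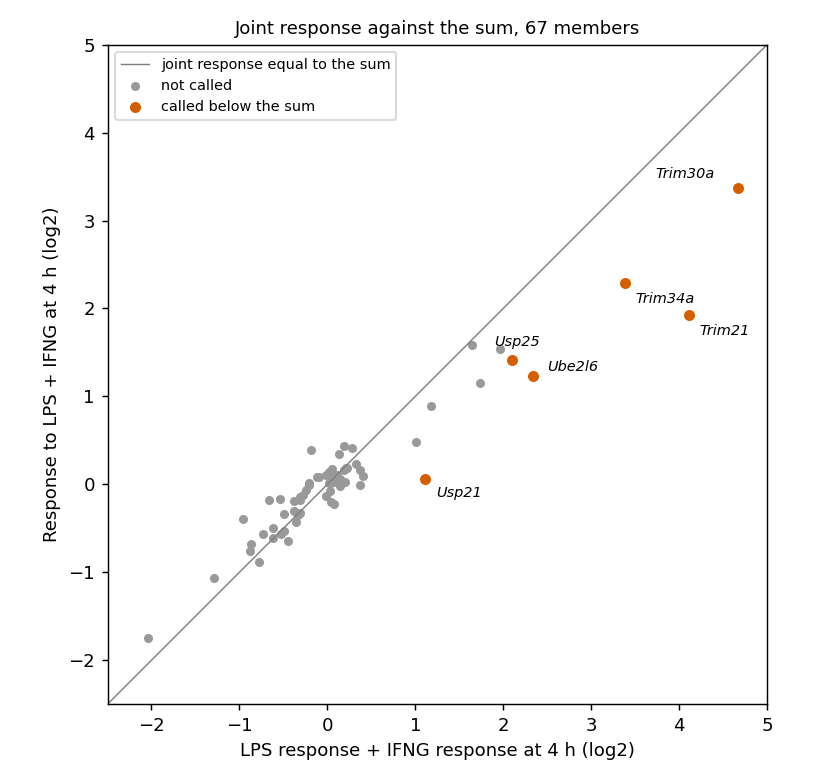
Response to LPS with IFNG at 4 h (log2, y axis) against the sum of the responses to LPS and to IFNG at 4 h (log2, x axis) for the 67 tested members; each point is a gene and the line marks equality. The 6 labelled genes lie below the line with an adjusted p under 0.05, Trim21 farthest.

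Adding 2MA to LPS gave no member that passed the test. In the difference between LPS with 2MA and LPS alone, no member was called in limma at 1 h, 2 h or 4 h, where 0.0776%, 0.0949% and 0.354% of all genes were called (at 4 h 0.285% up and 0.069% down). At an unadjusted p under 0.05 there were 1, 3 and 4 members. The smallest p of the 3 times was that of Ube2d3 at 4 h, whose sets were at 0.43, 0.58 and 0.60 (mean 0.54, SE 0.16, adjusted p = 0.166). For Trim30a the difference at 4 h was 0.29 (SE 0.25) and for Ube2l6 0.15 (SE 0.21), and neither was called.

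The responses to LPS at its 4 times were compared with an F test. It called 18 of the 67 members, beside 16.7% of all genes, and of these 16 had their largest response at 4 h and 2, Trim39 and Usp2, at 2 h. Across the 16 group means the members whose pattern was most like that of Trim30a, the member with the largest range, were Trim34a (r = 0.932), Usp25 (0.916), Ube2l6 (0.906), Trim12a (0.879) and Usp12 (0.841). These groups share sets and ligands, so the correlations are a description.

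The 21 members called in no group were Trim10, Trim29, Trim44, Ube2b, Ube2e3, Ube2g1, Ube2l3, Ube2v1, Ube2w and Usp4, Usp8, Usp11, Usp17la, Usp17lc, Usp19, Usp24, Usp26, Usp29, Usp39, Usp46os2 and Usp50. With the set number as a block 4 of them were called: Trim10 at 4 h of LPS (adjusted p = 0.0303 in limma), Ube2e3 at 2 h of LPS (0.0461), Ube2g1 at 4 h of LPS (0.0351) and of LPS with 2MA (0.00536), and Usp8 at 4 h of LPS with IFNG (0.0171) and of LPS with 2MA (0.0371). Group means of the 21 ran from -0.43 to 0.30. Ube2l3, a relative of Ube2l6 that works with HECT and RBR ligases, stayed between -0.14 and 0.18, and Usp8, an endosomal deubiquitinase, between -0.20 and 0.16. Of the 8 members not tested, Trim35 and Usp10 had a value on 1 array each, and Trim17, Trim42, Trim54, Ube2e1, Ube2n and Usp14 had values on 73 to 92 arrays with group means from -0.26 to 0.45.

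Genes of the rest of the pathway were taken from 4 lists, whose counts at 4 h of LPS stand beside 12.7% of all genes up and 15.9% down. Of the ubiquitin, ubiquitin-like protein and E1 genes 12 were tested, and after 4 h of LPS 3 rose and 1 fell, among them Isg15, Uba7 and Sae1, a subunit of the SUMO E1 (-0.65 ± 0.17, SD, n = 3 sets). Of other E3 ligases and adaptors 16 of 65 rose and 6 fell. Herc6 led the rises with 3.18, before Peli1, an E3 of Toll-like receptor signalling (2.52 ± 0.07), and Traf1 (2.46 ± 0.35), and Cdc20 led the falls, before Fzr1, which also activates the anaphase-promoting complex (-0.64 ± 0.22). Of other deubiquitinases 5 of 19 rose and 1 fell: Tnfaip3, the NF-kB inhibitor A20, averaged 2.15 ± 0.10, Otud1 0.80 ± 0.28 and Otub2 -0.33 ± 0.13. Of ubiquitin-binding adaptors of NF-kB signalling 3 of 10 rose and 1 fell, with Tnip1, a partner of A20, at 1.61 ± 0.30 and Tab1 at -0.53 ± 0.11. The medians of the 4 lists at 4 h of LPS were 0.01, 0.02, 0.06 and 0.03, beside 0.00 for all genes. At 4 h of IFNG 2 of 12, 17 of 65, 2 of 19 and 0 of 10 rose and 0, 3, 1 and 0 fell, beside 6.31% of all genes up and 5.99% down. Otud1 (2.15 ± 0.24) then stood above Tnfaip3 (1.16 ± 0.03).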

How the data were processed

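The deposited values are log2 ratios of 2-colour arrays, 1 column per array. The image analysis, background correction and normalisation behind them are stated by no label or file header. That they are on the log2 scale follows from their ceiling, 6.64 or log2 of 100, which 14 values share. How they were centred is unknown: with zeros included every array had a median of 0, and after the sign was turned the medians of nonzero values lay between -0.02 and 0.04. Exact 0 was read as no measurement, and 753 of 16281 probes were 0 on all arrays. Depth has no counterpart on arrays, where the number of sets limits the precision.

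Which channel held treated RNA was taken from the labels. Ratios were turned where Cy3 held it, and a set value needed both orientations. Tests used the 13698 probes with 2 or more set values in each group. Probes were named from the platform annotation, updated to current symbols through the RefSeq gene table (GRCm38.p6): 13738 had 1 gene, 52 several and 2491 none. A probe naming Trim46 together with 2 other genes was left out. Probes of 1 gene were averaged, which gave 9755 named genes and 1838 unnamed probes. 1 mean per group was fitted to the 48 set values with limma 3.58.1 in R 4.3.3 (32 residual and 5.89 prior degrees of freedom, median residual SD 0.196). Tests were two-sided, adjusted by Benjamini-Hochberg within each comparison. On simulated data with 200 genes changed by 1 on the log2 scale among 11593, the 4 h LPS test recovered 98.5% with 14 false calls. The simulated noise was independent between sets, and of the 27 members called at 4 h of LPS 8 reached a 2-fold change. That recovery therefore does not describe smaller changes, or sets that deviate together. In the comparisons between treatments, sets of the same number deviated together in every pair (r = 0.119 to 0.73), so the set number pairs the samples as a feature of the data, and a fit with it as a block was made. Estimates and adjusted p-values above are from the fit without that block unless stated.

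Named members were drawn by a rule, and not all that met it are described. It takes, per comparison, the 10 largest rises and 10 largest falls among those called with 1 sign in all sets. It adds members of fixed role groups and members whose probes disagree. Among those not described above are Usp16 (called up in 4 groups, highest mean 0.61) and Trim23 (called down in 3, lowest mean -0.55). The members, role groups, pathway lists and motif were chosen with earlier results of these data known. Plots used matplotlib 3.10.9 in Python 3.11.15. Usp18, left out by the choice of members, was not tested.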

Additional observations from a re-analysis of the deposited data

Results flagged for a closer look

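The response of 18 members to LPS differed between 30 min, 1 h, 2 h and 4 h by the F test in limma (adjusted p under 0.05 over all genes). Among the genes that rose, the adjusted p was 3.52e-14 for Trim34a, 1.96e-13 for Trim21, 7.33e-12 for Trim30a, 5.06e-10 for Usp25, 2.32e-06 for Trim25, 2.52e-06 for Ube2l6, 2e-05 for Usp21, 5.56e-05 for Trim12a and 0.000631 for Ube2f. Ube2d3, with an adjusted p of 4.38e-06, had means of -0.27, -0.34, -0.27 and 0.66 at the 4 times. Trim39, at 0.00418, averaged 0.49 at 2 h and -0.09 at 4 h. Among the genes that fell, it was 4.22e-06 for Trim59, 0.000299 for Ube2t, 0.00179 for Ube2a, 0.00428 for Trim33, 0.0194 for Ube2cbp, 0.0233 for Usp2 and 0.037 for Trim28. Ube2a went from 0.12 at 1 h to -0.38 at 4 h. Without set 1 Ube2f, Trim39, Trim33, Ube2cbp, Usp2 and Trim28 lost the call, without set 2 Ube2a and Usp2, and without set 3 Trim39, Trim33, Ube2cbp and Trim28.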

How the results depend on the processing

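Of 219 calls of members over the 16 groups and the differences between treatments, none changed sign under any alternative run, and 212 were kept with exact 0 left as 0, 215 with each array centred on its median (which moved the median of all genes by at most 0.0155), 211 in a fit of all 96 arrays with a dye term and 219 with the set number as a block. Where only genes with a value in all 3 sets of every group were tested, all 171 calls that could be tested were kept, and with 1 set required 218 were. Leaving out set 1, 2 or 3 kept 145, 167 and 175. Counts of called members that moved by more than 1.5 times were these. With zeros left as 0 there was 1 at 2 h of 2MA. With all 3 sets required there were 3 at 1 h of 2MA, 3 at 1 h of LPS with 2MA, and 1 for LPS with IFNG minus LPS at 2 h. With all arrays and a dye term there were 11 at 2 h of IFNG, 5, 2 and 6 at 1 h, 2 h and 4 h of 2MA, and 4 for LPS with IFNG minus LPS at 2 h. With the replicate block there were 7 at 1 h of LPS and 3, 1 and 6 at 1 h, 2 h and 4 h of 2MA. That block ended no call, and sets at the 4 LPS times were not paired (r = -0.301 to 0.42). Leaving out 1 set at a time gave 2 to 3 calls at 1 h and 9 to 14 at 2 h of LPS, 0 to 3 at 1 h and at 4 h of 2MA, and 6 to 10 at 1 h and 13 to 19 at 2 h of LPS with IFNG. For LPS with IFNG minus LPS it gave 1 to 3 at 1 h, 0 to 2 at 2 h and 2 to 3 at 4 h. It gave 5 to 9 for LPS minus IFNG, and 3 to 5 for the joint response minus the sum. The cause of these changes was not tested, beyond the fewer sets or genes that some settings leave. Shares of all genes are not given for these settings. Whether these counts moved along with those of all genes is not described here, so no change is read as particular to the members. Ube2e1, not tested for lack of sets, was called in 2 groups where 1 set was enough.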
